A study of Arabidopsis thaliana with 6 samples.

Results

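Mitochondria keep a small genome of their own, and the genes described here are those that the deposited tables place on the mitochondrial chromosome of Arabidopsis, that is, every locus whose identifier starts with ATMG. The rule takes 152 of the 33314 genes in the tables. The transcripts come from 14-day-old Arabidopsis seedlings grown on MS medium in long days and are taken to have been read by Nanopore direct RNA sequencing, in which RNA molecules are captured by a dT adapter and sequenced without amplification. The 3 genotypes were Col-0, the wild type; *fio1-1*, a chemically induced allele of *FIO1* with a changed splice site; and *fio1-5*, a deletion made by genome editing next to a splice site. Both mutants are in the Col-0 background, and *FIO1* encodes a nuclear m6A methyltransferase, an enzyme that methylates adenosines inside RNA. The labels list a Nanopore and an Illumina library for every genotype under the same protocol, and the tables have 1 column per genotype whose name does not say which library it holds; the values are described here as direct RNA counts, the kind of reads that the study's methods mapped in this way. With 1 column per genotype no difference has a replicate check, no p-value is given, and all intervals cover counting error only. Each mutant is represented by 1 allele in 1 library, and a difference of genotype and a difference of library cannot be told apart.

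The mitochondrial genome of Arabidopsis encodes the ribosomal RNAs and some of the proteins of the mitochondrial ribosome, a set of transfer RNAs, and core subunits of the respiratory chain and the ATP synthase; most other mitochondrial proteins come from nuclear genes. Its transcripts have no stable poly(A) tail. In plant mitochondria short A tails are added to RNAs that are to be degraded, so that a dT-captured library holds the tailed or A-rich fraction of mitochondrial RNA and is not a measure of the steady-state pool. A second particularity is a large, nearly identical copy of the mitochondrial genome inserted in chromosome 2, whose annotated genes share long stretches of sequence with the mitochondrial ones.

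Counts are given in the order *fio1-1*, *fio1-5*, Col-0 wherever 3 values follow a gene, and a pair of log2 ratios is that of *fio1-1* and then of *fio1-5*, each relative to Col-0. The library totals were 4351545 estimated counts (*fio1-1*), 4682804 (*fio1-5*) and 4602841 (Col-0). *FIO1* itself had 17 counts (*fio1-1*), 30 (*fio1-5*) and 25 (Col-0), which does not check the genotype labels because both alleles alter the sequence of the transcript rather than remove the gene. Of the tissue markers, the leaf genes *RBCS1A* and *LHCB1.3* had at least 41644 and 177860 counts in every library, *RCA* had 107 to 147, and the floral genes *AP1*, *AP3*, *PI* and *AG* had at most 2. The root gene *PYK10* (18449, 12700 and 7287 counts) and the seed oil body gene *OLE1* (859, 634 and 276) were higher in both mutants. Their part in the mitochondrial values was not tested, and in whole seedlings fewer cells of a type and less RNA per cell cannot be told apart.

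Because the adapter carries dT, the ends of the 3 ribosomal RNA genes and the longest runs of A in the most counted genes are shown. They are read from the TAIR10.1 mitochondrial chromosome (RefSeq), whose gene names matched 115 of the 152 loci. The tables themselves name no build. *RRN26* lies at chrMT:140797-143965, *RRN18* at chrMT:126289-128223 and *RRN5* at chrMT:126001-126118, all on the minus strand. The last 30 bases of each annotated RNA are, with a terminal A in capitals:
RRN26 end: gaagccatctcgtactaaacgaaacgactt
RRN18 end: cgtaggggaacctgtggctggattgaatcc
RRN5 end: tgttcgggagacatggtccaagcccggtgA
Apart from the single A of *RRN5*, no A is encoded at these ends. The longest run inside *RRN26* has 6 bases and that inside *RRN18* has 5, in capitals here:
RRN26 inside: gaaacttccaggAAAAAActtcgaattggg
RRN18 inside: ctgaagaaagctAAAAAgcgctgtttgatg
The open reading frames *ORF240A* (chrMT:346556-347278, plus strand) and *ORF275* (chrMT:358985-359813, plus strand), which come next after the ribosomal RNAs by counts, have runs of 6 bases:
ORF240A inside: tgtaccgggaagAAAAAAgggacagaaatc
ORF275 inside: atgAAAAAAtataaaatggttattaatatt
*ORF111D* (chrMT:125656-125991, minus strand) starts 9 bases after the end of *RRN5*, and those 9 bases are in capitals here:
RRN5 to ORF111D: agcccggtgaAGAAATAAAatgaaaatttc
Longer runs lie within the annotated spans of genes with fewer counts, as in *NAD4* (13 bases) and *ORF149* (11 bases). Whether any run inside a gene served as a site of capture was not tested. On the opposite strand *ORF107A* overlaps *RRN26* by 185 bases. Because the handling of strand in the counting is not given in the sources used here, reads of such neighbours may have been divided in either way.

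The mitochondrial genes gave a very small part of each library. Their counts summed to 3235 (*fio1-1*), 3492 (*fio1-5*) and 2953 (Col-0). These sums are 0.0743% of all counts in *fio1-1* (exact Clopper-Pearson 95% interval 0.0718 to 0.0769), 0.0746% in *fio1-5* (0.0721 to 0.0771) and 0.0642% in Col-0 (0.0619 to 0.0665). The share was thus higher in both mutants, and the intervals of the mutants overlap each other but not that of Col-0. After TMM scaling of the libraries, the summed counts were 1.20-fold higher in *fio1-1* than in Col-0 (log2 ratio 0.26, exact 95% counting interval 0.19 to 0.33) and 1.20-fold higher in *fio1-5* (0.26, 0.19 to 0.33). Without *RRN26* the log2 ratio was smaller but still above 0 in *fio1-1* (0.13, 0.02 to 0.23). In *fio1-5* it was -0.04, with an interval that includes 0 (-0.14 to 0.07), so that there the higher sum rests on *RRN26*.

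This sum joins 2 groups that lay on opposite sides of Col-0. The 3 ribosomal RNA genes, which encode the RNA of the mitochondrial ribosome, had 2876 counts (*fio1-1*), 3207 (*fio1-5*) and 2438 (Col-0), and were 1.29-fold higher in *fio1-1* (log2 ratio 0.37, 0.29 to 0.44) and 1.33-fold higher in *fio1-5* (0.41, 0.34 to 0.49). All other mitochondrial genes together had 359, 285 and 515 counts in the same order, and were 1.31-fold lower in *fio1-1* (log2 ratio -0.39, -0.59 to -0.20) and 1.78-fold lower in *fio1-5* (-0.83, -1.05 to -0.62). On the deposited TPM values, in which *TRNS.2* with its 5, 4 and 2 counts is listed at 227, 167 and 92.0 TPM, the ratio in *fio1-1* turned to 0.32. Ribosomal RNA therefore made up 82.6% of the mitochondrial counts in Col-0 (81.1 to 83.9), 88.9% (*fio1-1*, 87.8 to 90.0) and 91.8% (*fio1-5*, 90.9 to 92.7). A count of ribosomal RNA for every other mitochondrial count stood at 4.73 in Col-0, 8.01 in *fio1-1* and 11.3 in *fio1-5*. This ratio needs no scaling between libraries, and its odds ratio to Col-0 was 1.69 (*fio1-1*, 1.46 to 1.96) and 2.38 (*fio1-5*, 2.03 to 2.78). Between the mutants the odds ratio was 1.40 (1.19 to 1.66), with the higher share of ribosomal RNA in *fio1-5*.

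**Figure D1:**
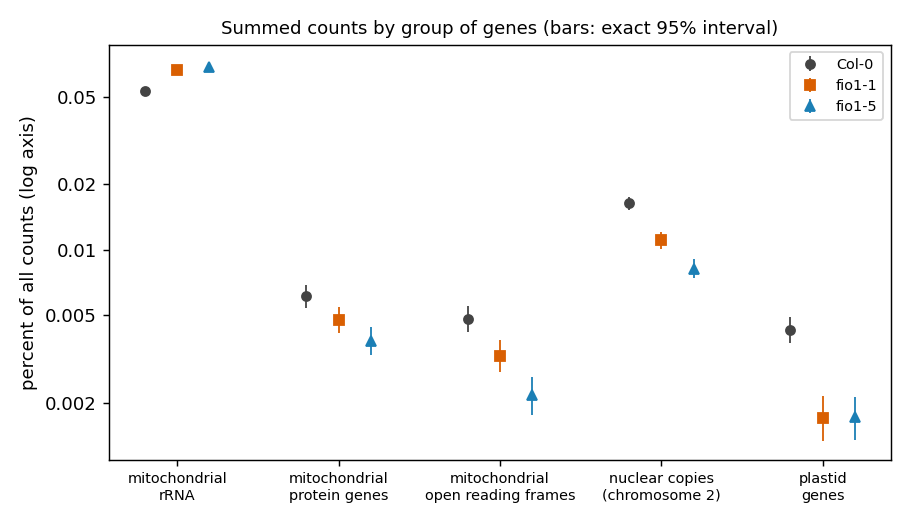
Share of all counts (percent, log axis) held by 5 groups of genes in each library; points are the 3 libraries and bars the exact 95% interval. The mitochondrial ribosomal RNA genes are higher in both mutants (0.0661% in *fio1-1* and 0.0685% in *fio1-5* against 0.0530% in Col-0), whereas the other 4 groups are lower in both mutants than in Col-0.

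Among the ribosomal RNAs, *RRN26*, the large subunit RNA, was the most counted mitochondrial transcript, with 1736 counts (*fio1-1*), 2049 (*fio1-5*) and 1453 (Col-0). Its log2 ratio to Col-0 was 0.38 (*fio1-1*, 0.28 to 0.49) and 0.51 (*fio1-5*, 0.42 to 0.61). *RRN18*, the small subunit RNA, had 882, 861 and 772 counts, so that it lay 0.32 above Col-0 on the log2 scale (*fio1-1*, 0.18 to 0.46) and 0.18 (*fio1-5*, 0.03 to 0.32). *RRN5*, the 5S RNA of the large subunit, had 258, 297 and 213 counts and log2 ratios of 0.40 (0.14 to 0.67) and 0.50 (0.24 to 0.76). All 3 were thus higher in both mutants, by less than 2-fold. The large and the small subunit RNA did not keep the same proportion in the libraries: *RRN26* had 1.88 counts for each of *RRN18* in Col-0 (1.72 to 2.06), 1.97 (*fio1-1*, 1.81 to 2.14) and 2.38 (*fio1-5*, 2.20 to 2.58). The odds ratio of *fio1-5* to Col-0 was 1.26 (1.12 to 1.43) and that of *fio1-1* to Col-0 was 1.05 (0.927 to 1.18). Per kilobase of annotated length, *RRN5* stood highest with 2186 counts per kb (*fio1-1*), 2517 (*fio1-5*) and 1805 (Col-0), against 548, 647 and 459 for *RRN26* and 456, 445 and 399 for *RRN18*. The order *RRN5*, *RRN26*, *RRN18* was the same in each library, but it comes from the division by length. By counts the order was *RRN26*, *RRN18*, *RRN5* in each library. If the counts are direct RNA reads, 1 for each captured molecule, they need no such division. The 3 genes share almost no sequence with the nuclear chromosomes of TAIR10.1: of their 21-base words, 3.62% (*RRN26*), 3.55% (*RRN18*) and 0% (*RRN5*) also occur there. A nuclear copy that this assembly lacks would not be seen in this way.

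Apart from ribosomal RNA, reads were rare. Of the 152 genes, 78 had no count in any library, 55 had from 1 to 19 counts in the 3 libraries together, and 19 had 20 or more, the minimum used for ratios; these 19 include the 3 ribosomal RNAs. A gene at 0 in a library may hold up to 3 counts, which is 0.0000689% of the *fio1-1* total, 0.0000641% for *fio1-5* and 0.0000652% for Col-0. Of the 21 transfer RNA genes, 19 were at 0 throughout, and the remaining ones, *TRNS.2* (5, 4 and 2 counts) and *TRNS.4* (3, 0 and 3), were barely seen.

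**Figure D2:**
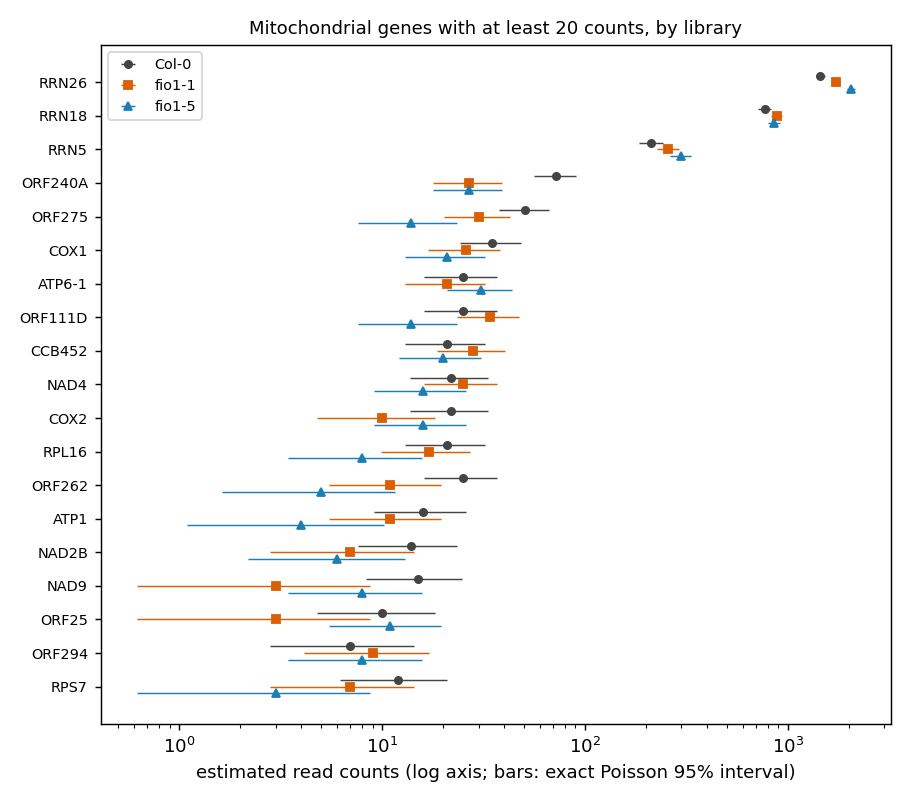
Estimated read counts (log axis) of the 19 mitochondrial genes with at least 20 counts over the 3 libraries, with exact Poisson 95% intervals. The 3 ribosomal RNAs have between 213 and 2049 counts, and every other gene has at most 72.

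Of the 19 genes, none was at least 2-fold higher in either mutant than in Col-0, where 9.48% of the 16426 tested genes were at least 2-fold higher in *fio1-1* and 7.36% in *fio1-5*. At least 2-fold lower were 4 of the 19 in *fio1-1* (21.1%, against 4.32% of all tested genes) and 7 of the 19 in *fio1-5* (36.8%, against 4.34%). Rarely counted genes passed this limit more often. Among the 6422 genes with 22 to 126 summed counts, the range of the 16 mitochondrial genes other than ribosomal RNA, 8.38% were at least 2-fold lower in *fio1-1* and 7.79% in *fio1-5*. Of the mitochondrial genes counted as lower, *ORF262*, *ATP1*, *NAD2B*, *RPS7*, *NAD9* and *ORF25* reached the minimum only with their Col-0 counts. The minimum can thus favour genes that are high in Col-0, and the numbers of genes lower are a description and not a test. The median log2 ratio of the 16 genes was -0.51 in *fio1-1* and -0.82 in *fio1-5*, beside 0.03 and 0.02 over the 6422 genes and -0.01 and 0.00 over all tested genes. Values below 0 were seen for 12 of the 16 in *fio1-1* and for 13 in *fio1-5*, 10 of them in both; the mutants share the Col-0 library, so these counts are not independent. For 8 of the 16 genes, *ATP6-1*, *CCB452*, *NAD4*, *ORF262*, *ATP1*, *NAD2B*, *ORF294* and *RPS7*, more than 97% of the 21-base words also occur in the nuclear genome, and their counts are uncertain to that extent. The counting interval lay below 0 for 2 of the 16 in *fio1-1* (12.5%, against 7.60% of the 6422 genes and 15.2% of all tested genes) and for 6 in *fio1-5* (37.5%, against 7.60% and 15.2%). It lay above 0 for none of the 16, against 13.5% of the 6422 genes in *fio1-1* and 11.4% in *fio1-5*. Over all 19, the medians were -0.30 in *fio1-1* and -0.71 in *fio1-5*.

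The open reading frames, stretches without an assigned function that were annotated from the sequence alone, included the genes with the most counts after the ribosomal RNAs. *ORF240A* had 27 counts (*fio1-1*), 27 (*fio1-5*) and 72 (Col-0), and relative to Col-0 it stood at -1.27 (-1.98 to -0.63) on the log2 scale in *fio1-1* and -1.38 in *fio1-5* (-2.09 to -0.74). *ORF275* had 30, 14 and 51 counts, which are log2 ratios of -0.63 (-1.34 to 0.04) and -1.81 (-2.81 to -0.97). Both were lower in each mutant, and only the interval of *ORF275* in *fio1-1* reached 0. *ORF262* (chrMT:269862-270650), which lies 310 bases downstream of *ATP9* on the same strand, had 11, 5 and 25 counts, which are log2 ratios of -1.03 (-2.23 to 0.02) and -2.20 (-4.05 to -0.89).
*ORF111D*, next to *RRN5*, was lower in *fio1-5* than in *fio1-1*: it had 34 counts (*fio1-1*), 14 (*fio1-5*) and 25 (Col-0), and the log2 ratio of *fio1-5* to *fio1-1* was -1.36 (-2.40 to -0.45), while that of its neighbour *RRN5* was 0.09 (-0.15 to 0.34). *ORF294*, which ends 146 bases before *ATP1*, had 9, 8 and 7 counts and intervals that span 0 in every comparison. Summed, the 84 open reading frames had 142 counts (*fio1-1*), 101 (*fio1-5*) and 222 (Col-0); 46 of them were at 0 throughout and 33 had 1 to 19 counts.

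Complex I, the NADH dehydrogenase that feeds electrons into the respiratory chain, is represented by 14 loci, several of which are pieces of the trans-spliced *nad1*, *nad2* and *nad5*. They had 66 counts (*fio1-1*), 46 (*fio1-5*) and 79 (Col-0). The summed log2 ratio was -0.13 (*fio1-1*, -0.63 to 0.36) and -0.76 (*fio1-5*, -1.32 to -0.22). *NAD4*, a subunit of the membrane arm, had 25, 16 and 22 counts and intervals that include 0. *NAD9*, a subunit of the matrix arm, had 3, 8 and 15 counts, and its log2 ratio of -2.03 in *fio1-1* (-4.62 to -0.37) rests on 3 counts. *NAD2B*, the second piece of *nad2*, had 7, 6 and 14 counts, and its intervals include 0 in both mutants (log2 ratios -0.83 and -1.14). Of the remaining complex I loci, 7 had 1 to 19 counts and 4 were at 0.

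Complex IV, the terminal oxidase, had 41 counts in each mutant and 63 in Col-0 over its 3 mitochondrial subunits, with summed log2 ratios of -0.49 (*fio1-1*, -1.10 to 0.10) and -0.60 (*fio1-5*, -1.21 to -0.01). *COX1*, the catalytic subunit, had 26 counts (*fio1-1*), 21 (*fio1-5*) and 35 (Col-0). *COX2*, which takes up electrons from cytochrome c, had 10, 16 and 22. Both were lower in each mutant than in Col-0, and all 4 intervals include 0.
The ATP synthase genes summed to 37, 48 and 54 counts, and their members lay on different sides of Col-0. *ATP1*, the alpha subunit of the catalytic head, had 11, 4 and 16 counts and a log2 ratio of -1.86 in *fio1-5* (-4.02 to -0.35). *ATP6-1*, the subunit that forms the proton path, had 21, 31 and 25 counts, which are log2 ratios of -0.12 (-1.03 to 0.77) and 0.32 (-0.48 to 1.15). *ORF25*, the locus of *atp4* and a part of the peripheral stalk, had 3, 11 and 10 counts and intervals that include 0 in all 3 comparisons.

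Of the ribosomal proteins, *RPL16* had 17 counts (*fio1-1*), 8 (*fio1-5*) and 21 (Col-0), and *RPS7* had 7, 3 and 12. The log2 ratio of *RPL16* to Col-0 was -0.17 (*fio1-1*, -1.19 to 0.82) and -1.32 (*fio1-5*, -2.76 to -0.14), and that of *RPS7* was -0.62 (-2.23 to 0.81) and -1.82 (-4.45 to -0.09). The 7 ribosomal protein genes of the mitochondrial genome together had 30, 21 and 53 counts. They were 1.61-fold lower in *fio1-1* (counting interval -1.39 to -0.02 on the log2 scale) and 2.46-fold lower in *fio1-5* (-2.12 to -0.56), while the ribosomal RNAs were higher. Ribosomal proteins encoded in the nucleus were not examined. The sum leaves out the nuclear copies of *RPL5* (16, 9 and 21 counts) and *RPL2* (11, 5 and 19). Since *RPL16* overlaps the preceding *rps3* by 134 bases, reads of the 2 genes can be shared.
*CCB452*, the *ccmFC* gene of cytochrome c maturation, was 1 of the few genes with more counts in *fio1-1* than in Col-0 (28, 20 and 21 counts; log2 ratios 0.53, -0.33 to 1.43, and -0.05, -1.01 to 0.90). The 19 protein genes of known role under the minimum, among them *NAD7*, *COX3* and *matR*, had from 1 to 19 counts each and summed to 50 (*fio1-1*), 35 (*fio1-5*) and 69 (Col-0). *COB*, the cytochrome b gene of complex III, was at 0 in all libraries.

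**Figure D3:**
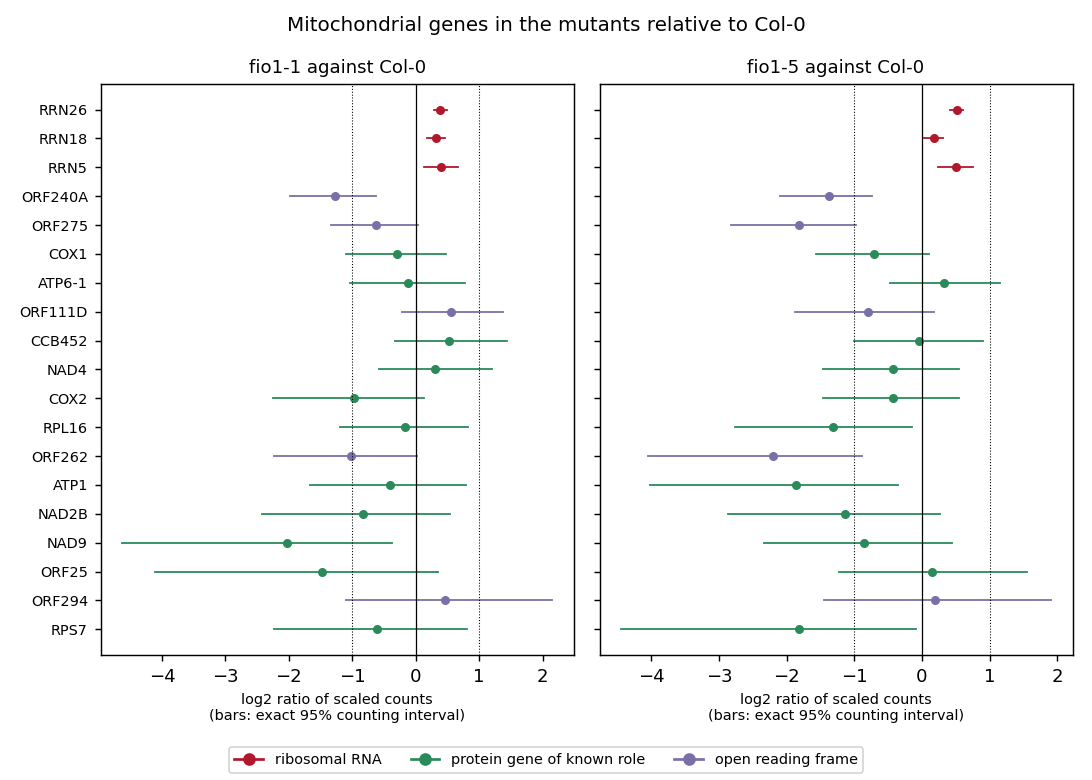
Log2 ratio of scaled counts of the 19 mitochondrial genes in *fio1-1* (left) and *fio1-5* (right) relative to Col-0, with exact 95% counting intervals; dotted lines mark a 2-fold difference. The 3 ribosomal RNAs lie above 0 in both mutants with narrow intervals, and in *fio1-5* the intervals of 6 of the other 16 genes lie below 0, and in *fio1-1* those of 2 of 16.

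Comparing the mutants with each other, the summed counts differed by less than their counting interval (log2 ratio of *fio1-5* to *fio1-1* 0.00, -0.07 to 0.07), as did those of ribosomal RNA (0.05, -0.02 to 0.12), whereas the other genes together were 1.36-fold lower in *fio1-5* (-0.44, -0.67 to -0.21). Of the 19 genes, 2 were at least 2-fold higher in *fio1-5* (10.5%, against 3.24% of all tested genes), namely *NAD9* and *ORF25*, each with 3 counts in *fio1-1*. At least 2-fold lower in *fio1-5* were 6 (31.6%, against 4.97%), and the intervals of *ORF275* (-1.18, -2.24 to -0.25) and *ORF111D* alone among them excluded 0. In the 6422 genes with similarly few counts the shares were 7.02% higher and 8.35% lower.

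Many counts were listed under nuclear genes on chromosome 2 that hold the sequence of a mitochondrial gene. For 41 nuclear genes, at least 50% of the 21-base words of a mitochondrial gene occur on the same strand. *ATP9*, which encodes the ring subunit of the ATP synthase, had 0 counts (*fio1-1*), 0 (*fio1-5*) and 2 (Col-0), while AT2G07671 (chr2:3251566-3252341), which holds 100% of its words, had 221, 218 and 308. *COB* had none, and its copy AT2G07727 had 25, 16 and 33. The same was seen for *ORF313*, at 0 in each library beside 54, 37 and 134 counts of AT2G07718. That nuclear gene (chr2:3424685-3430483) is much longer than the 942 bases of *ORF313*, so its counts need not fall in the shared sequence. The same holds for AT2G07727 (chr2:3449534-3452776) beside the 1182 bases of *COB*. *ATP6-1* and *ATP6-2* together had 23 counts (*fio1-1*), 33 (*fio1-5*) and 26 (Col-0), but their copy AT2G07741 had 19, 2 and 8. Counted jointly, the 3 loci had 42, 35 and 34. The share given to the mitochondrial genes was thus 54.8%, 94.3% and 76.5%, and it differed more between the libraries than the joint counts did.
Summed, the 41 copies had 479 counts (*fio1-1*), 383 (*fio1-5*) and 749 (Col-0), and were 1.43-fold lower in *fio1-1* (log2 ratio -0.52, -0.69 to -0.35) and 1.93-fold lower in *fio1-5* (-0.95, -1.13 to -0.77). The copies lay on the same side of Col-0 as the mitochondrial genes other than ribosomal RNA. For reads of this kind the tables do not tell the 2 genomes apart.

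**Figure D4:**
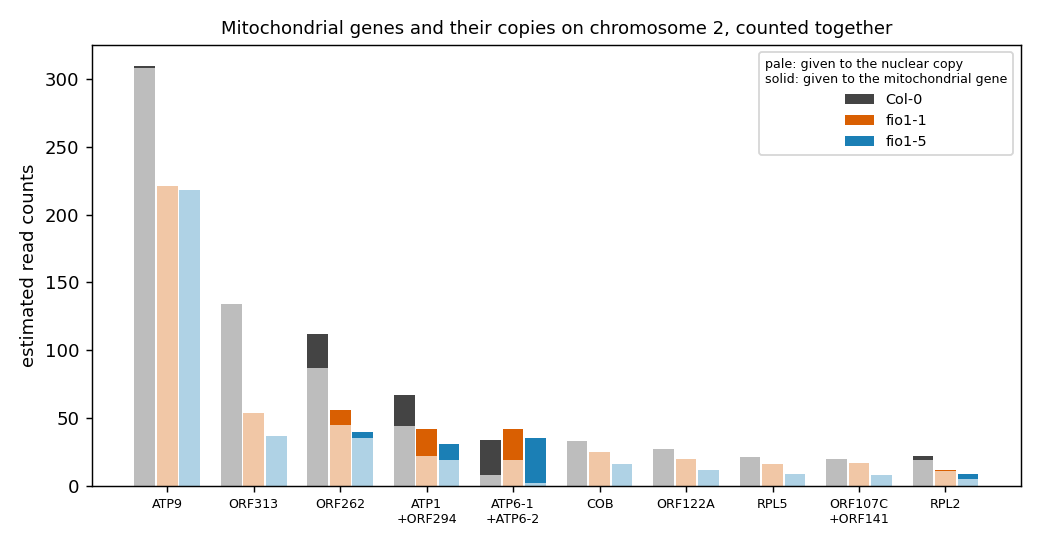
Estimated read counts of 10 mitochondrial genes or gene pairs and their copies on chromosome 2, counted together, in each library; the solid part of a bar was given to the mitochondrial gene and the pale part to the nuclear copy. For *ATP9*, *ORF313* and *COB* almost all joint counts were listed under the nuclear gene. For *ORF313* and *COB* that gene is longer than the shared sequence, and its counts need not fall in it. The joint counts of *ORF262* and *ATP1* with *ORF294* are highest in Col-0 (112 and 67).

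Genes that share less and more sequence with the nuclear genome, as assembled in TAIR10.1, both lay below Col-0. The 29 genes other than ribosomal RNA with less than 50% of their words in the nuclear genome had 187 counts (*fio1-1*), 149 (*fio1-5*) and 297 (Col-0), which are log2 ratios of -0.54 (-0.81 to -0.27) and -0.97 (-1.27 to -0.69). The 83 genes with at least 50% had 157, 131 and 201 counts, which are log2 ratios of -0.23 (-0.54 to 0.08) and -0.60 (-0.93 to -0.27). *ORF240A* and *ORF275* belong to the first group, and without them its remaining 27 genes had 130, 108 and 174 counts. Their log2 ratio was then -0.29 in *fio1-1*, with an interval that includes 0 (-0.63 to 0.04), and -0.67 in *fio1-5* (-1.03 to -0.31). Over all genes other than ribosomal RNA, those without these 2 had 302, 244 and 392 counts, which are log2 ratios of -0.25 (-0.47 to -0.03) and -0.66 (-0.90 to -0.43).

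The plastid genome, the second organelle genome of the plant cell, whose transcripts likewise lack a stable poly(A) tail, was rarer still. Its 133 genes had 74 counts (*fio1-1*), 80 (*fio1-5*) and 198 (Col-0), and were 2.44-fold lower in *fio1-1* (log2 ratio -1.29, -1.70 to -0.90) and 2.43-fold lower in *fio1-5* (-1.28, -1.68 to -0.91). Of the 5 plastid genes with at least 20 counts, 4 were at least 2-fold lower in each mutant, against 4.32% of all tested genes in *fio1-1* and 4.34% in *fio1-5*, or 8.38% and 7.79% of the genes with 22 to 126 counts. These 4 reached the minimum only through their Col-0 counts, so their number past 2-fold is a description and not a test. Among these 4 were *PSBM* of photosystem II (6, 7 and 27 counts) and *ATPE* of the plastid ATP synthase (1, 3 and 23). The fifth, *PSAI* of photosystem I, had 6, 10 and 5 counts and lay on the other side of Col-0, with log2 ratios of 0.36 and 0.95. Thus the mitochondrial genes other than ribosomal RNA, the nuclear copies and the plastid genes each had fewer counts in both mutants than in Col-0, and the mitochondrial ribosomal RNAs had more.

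Nuclear genes that serve mitochondria were listed in 3 groups. Subunits of the respiratory complexes and cytochrome c made in the cytosol had median log2 ratios of 0.16 in *fio1-1* and 0.22 in *fio1-5* over 39 tested genes of 42. At least 2-fold higher were 2 of the 39 in *fio1-1* and 1 in *fio1-5*, where 9.48% and 7.36% of all tested genes were. None was at least 2-fold lower, against 4.32% and 4.34% of all tested genes. The cytochrome c1 gene AT5G40810 stood apart with 159 counts (*fio1-1*), 165 (*fio1-5*) and 41 (Col-0), log2 ratios 2.07 and 2.01. Its paralog AT3G27240, with which it may share reads, had 327, 399 and 511 counts and log2 ratios of -0.52 and -0.34.
Genes of mitochondrial RNA synthesis, processing and decay had medians of -0.16 and -0.22 over 12 tested genes of 15. *RPOTM*, the mitochondrial RNA polymerase, had 51, 63 and 68 counts, and *mtPNPase*, the exonuclease that removes tailed RNAs, had 18, 30 and 21. *AGS1*, the mitochondrial poly(A) polymerase, had 26, 31 and 36 counts, and *AHG2*, the poly(A)-specific ribonuclease that acts on mitochondrial transcripts, had 0, 0 and 3, too few for a ratio. All intervals of *RPOTM*, *mtPNPase* and *AGS1* against Col-0 include 0. Among the other genes of the list, *RNR1*, a ribonuclease that trims organelle RNAs, had 92, 131 and 151 counts and a log2 ratio of -0.59 in *fio1-1* (-0.98 to -0.20), and *RNZ3*, which cleaves transfer RNA precursors, had 31, 38 and 22 and a log2 ratio of 0.79 in *fio1-5* (0.01 to 1.63). The 1 gene of these 12 past 2-fold, *nMAT3*, a maturase factor for mitochondrial introns, was lower in both mutants (6, 9 and 20 counts, log2 ratios -1.54, -3.22 to -0.24, and -1.09, -2.45 to 0.07). It reached the minimum only with its Col-0 counts. Of all tested genes, 4.32% were at least 2-fold lower in *fio1-1* and 4.34% in *fio1-5*. Among the genes with 22 to 126 counts these shares were 8.38% and 7.79%.
Genes of the mitochondrial stress response included several with more counts in the mutants: of 12 tested genes of 13, 4 were at least 2-fold higher in each mutant (33.3%, against 9.48% of all tested genes in *fio1-1* and 7.36% in *fio1-5*, and 15.1% and 12.7% of the genes with 22 to 126 counts, a range that holds 2 of these 4), none was at least 2-fold lower in *fio1-1* and 1 was in *fio1-5*, and the medians were 0.48 and 0.55. The list was chosen with earlier results of these data known, so its share past 2-fold is a description of its members and not a test. *UPOX*, a small protein induced by oxidants, had 77 counts (*fio1-1*), 113 (*fio1-5*) and 31 (Col-0), log2 ratios 1.42 and 1.87 with intervals above 0. *NDA1*, an alternative NADH dehydrogenase, had 47, 66 and 15 counts, and *AOX1A*, the alternative oxidase, had 378, 450 and 278 (log2 ratios 0.57, 0.34 to 0.80, and 0.71, 0.49 to 0.93). *DIC2*, a dicarboxylate carrier, went the other way, with 66, 30 and 101 counts and a log2 ratio of -1.72 in *fio1-5* (-2.37 to -1.13). *NDB2*, an external NADH dehydrogenase, had 4, 2 and 1 counts.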

How the data were processed

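Seedlings of Col-0, *fio1-1* and *fio1-5* were sequenced, and the reads are taken to be those of Nanopore direct RNA sequencing. As the study's methods state, reads were base called with Guppy, filtered for length and quality, corrected and mapped with minimap2 2.17-r941; the submitters' notes also list SAMtools 1.10 and methylKit. The counting tool, the annotation, its build and the handling of strand are not given in the sources used here. Columns name a genotype but no platform and were therefore assigned to genotypes only. The authors deposited estimated counts per isoform, not normalized, and TPM values. The length behind the TPM is not given in the sources used here and is not the annotated length: in *fio1-1*, *RRN5* has 2186 counts per kb of annotated length and *RRN26* has 548, but they are listed at 9530 and 110 TPM. Correlation files of the authors were not used.

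Estimated counts of all isoforms of a locus were added up and rounded to whole numbers. Scaling factors were TMM (edgeR 4.0.16, R 4.3.3). Log2 ratios carry 0.5 added counts and were computed for genes with at least 20 counts over the 3 libraries; intervals are exact conditional binomial at 95%, without added counts. Shares have Clopper-Pearson intervals, and odds ratios have exact conditional intervals. Other steps ran in Python 3.11.15 with SciPy 1.17.1. The calculation of ratios and intervals was checked on simulated Poisson counts. These hold no variation between replicates and no error of read assignment, so the check covers the calculation only. Nuclear copies were found in TAIR10.1 as genes that hold at least 50% of the 21-base words of a mitochondrial gene on the same strand; *ATMG* loci were matched to TAIR10.1 by name, since that annotation does not carry their identifiers. Named are all mitochondrial genes with at least 20 counts, plus listed nuclear genes. *COB*, *ATP9*, *TRNS.2* and *TRNS.4* and the plastid and nuclear copies are named as members of the lists. The members and lists were chosen with earlier results of these data known. Alternatives were total-count, DESeq2 1.42.0 and nuclear-only scaling, TPM, 2 added counts, other minimums, 4-fold, joining nuclear copies, and leaving out ribosomal RNA or the most counted gene.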

Additional observations from a re-analysis of the deposited data

How the results depend on the processing

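The results rest on 1 library per genotype. No paired analysis was possible because the columns carry no replicate numbers. Intervals leave out the error of assigning reads to isoforms and to nuclear copies, and 16 of the 19 genes with a ratio have 126 counts or fewer. Of the alternatives run on shares, sums, medians and numbers of genes, 117 stayed within the counting interval (for numbers of genes, within 1.5 times, and for medians, within 0.1), 45 moved further and 6 turned the direction. Of 342 for single genes, 338 stayed within the interval, 4 moved and 0 reversed. The intervals of rarely counted genes are wide, and joining copies changes nothing for a gene without one. The tally for single genes is therefore a weak check. The other count scalings shifted the median of all genes by less than 0.1 on the log2 scale, whereas deposited TPM shifted it by -0.13 (*fio1-1*) and -0.15 (*fio1-5*). Causes were not tested unless the alternative itself shows them.

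In the order *fio1-1*, *fio1-5*, Col-0, the mitochondrial share became 1.03%, 1.05% and 0.855% of TPM, 0.0853%, 0.0827% and 0.0804% of counts with the nuclear copies added, 0.00825%, 0.00609% and 0.0112% without ribosomal RNA, and 0.0344%, 0.0308% and 0.0326% without *RRN26*. The summed log2 ratio was 0.13 in *fio1-1* and 0.084 in *fio1-5* with the copies, and reversed without ribosomal RNA (-0.39 and -0.83, with -0.44 between the mutants). Without *RRN26* it was 0.13 in *fio1-1*, reversed to -0.037 in *fio1-5*, with an interval that includes 0, and was -0.16 between the mutants.

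The following were chosen after seeing the data. For genes other than ribosomal RNA, TPM reversed the ratio in *fio1-1* to 0.32 and gave -0.98 between the mutants; *TRNS.2*, with 5 counts in *fio1-1* and 2 in Col-0, is listed at 227 and 92.0 TPM. Genes with at least 50% of their words in the nuclear genome gave -0.60 in *fio1-5*. For ribosomal RNA, TPM gave 0.26 in *fio1-1*, and leaving out *RRN26* gave 0.25 in *fio1-5* and -0.086 between the mutants.

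Without a minimum count, the genes at least 2-fold higher numbered 12 (*fio1-1*), 8 (*fio1-5*) and 14 (*fio1-5* against *fio1-1*), those lower 25, 31 and 23, of 74 genes with a count, and the medians were -0.12, -0.43 and -0.080. Of all 23271 genes with a count, 15.6%, 14.0% and 10.3% were higher and 10.7%, 10.2% and 10.9% lower. Of the 55 mitochondrial genes with 1 to 19 counts, 38.2%, 43.6% and 30.9% were lower, beside 25.8%, 24.4% and 25.3% of the 6845 genes with as few. With a minimum of 100 counts, which leaves 4 genes, 1, 1 and 0 were lower, 0 were higher between the mutants, and the medians were 0.35, 0.34 and -0.0063, the first 2 of them reversed. At 4-fold 1, 1 and 0 were lower and 0 were higher between the mutants, where 2 added counts left 1 higher. With the copies, a gene and its copies were counted as 1 unit, and *ATP9*, *ORF313* and *COB* passed the minimum only in this way. Of such units 13 were lower in *fio1-5*, a number not comparable with that of the single genes. Their medians were -0.93 in *fio1-5* and -0.52 between the mutants. The median on TPM was -0.59 in *fio1-5*. No share over all genes is given at 4-fold, at the minimum of 100 counts or with the copies.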
